A study of Mus musculus with 15 samples.

Results

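Pparg and 9 genes of lipid droplets were followed across tumors and livers of mice on a Western diet and livers of mice on chow. The 10 genes were taken by symbol: Pparg, Cidea, Cideb, Cidec, Plin2, Plin4, Plin5, Mogat1, G0s2 and Fitm2. Together they had 15 of the 45281 probes on the array and were 10 of the 19057 genes with a probe of their own. The values are log2 levels, that is log2 of the background-corrected signal after normalization between arrays, so that a difference of 1 is a 2-fold change.

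Total RNA was measured on 15 Illumina mouse arrays, 1 per tissue sample, in 3 groups of 5. All mice were male and of a single inbred line bred from the strains 129S1/SvImJ and C57Bl/6J, and all tissue was taken after 52 weeks of feeding from young adulthood. The first group holds tumors and the second holds liver next to the tumors, both from the WD SW-fed mice 4N, 4R, 5N, 5R and 6L, which ate a Western diet rich in fat with cholesterol and drank water with fructose and glucose. The third group holds livers of the CD NW-fed mice 1L, 1R, 2L, 2N and 3N, which ate chow and drank normal water. The labels name no altered gene and no treatment other than the diet. The 3 comparisons made share arrays, so their results are not independent of each other. Because every WD SW liver came from a mouse with tumors, the diet and the presence of a tumor cannot be told apart where these livers are set against CD NW livers.

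Fat in a liver cell is kept in lipid droplets, a core of triglyceride and cholesterol ester under a single layer of phospholipid and proteins. Perilipins coat the droplet and limit the access of lipases, CIDE proteins bring droplets together and let them grow, and other proteins help to fill the droplet or to hold back its breakdown. PPARG is a nuclear receptor that binds DNA together with a retinoid X receptor and switches on genes of fat storage in fat cells. In normal liver it is scarce, and it is known to be more abundant in fatty liver of mice.

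The quality of the arrays bears on all that follows. Between 12293 and 15829 probes per array were above background, meaning that fewer than 1% of 1526 receptor probes standing in for negative controls were as bright. All 14 hepatocyte markers examined were above background, 12 of them on all 15 arrays, and their summed linear level was 150160 to 169354 in tumors, 148340 to 187772 in WD SW livers and 183433 to 209569 in CD NW livers. The WD SW liver of mouse 5R stood apart: over genes changed in a comparison made without that mouse, it lay 0.537 of the way toward tumors (median over 173 genes higher in tumors), against -0.287 to 0.115 for the other 4 livers. Over the 153 genes lower in tumors it lay 0.328 of the way, against -0.105 to 0.059 for the other 4. In bulk tissue, fewer cells of a type and less RNA per cell cannot be told apart.

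Pparg, the receptor itself, was higher in WD SW livers and in tumors than in CD NW livers. Its level was 8.17, 8.93, 9.24, 8.94 and 9.45 in the tumors of mice 4N, 4R, 5N, 5R and 6L. It was 7.89, 8.56, 8.90, 8.66 and 8.45 in the WD SW livers of the same mice in that order, and 7.37, 7.24, 7.55, 7.69 and 6.76 in the CD NW livers of mice 1L, 1R, 2L, 2N and 3N. The lowest WD SW liver and the lowest tumor, both of mouse 4N, lay above the highest CD NW liver, while tumors and WD SW livers overlapped. The mean was 8.49 ± 0.38 in WD SW livers and 7.32 ± 0.36 in CD NW livers (SD, n = 5 each), a difference of 1.17 (standard error 0.22, limma adjusted p = 0.00712). In tumors the mean was 8.95 ± 0.48 (SD, n = 5), 1.62 above CD NW livers (standard error 0.24, limma adjusted p = 5.30e-04). Over the 20 alternatives run, the adjusted p of the first difference was 0.00275 to 0.0207 and that of the second 6.10e-05 to 0.00205, so that both kept their call in all of them.

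The values for Pparg rest on 1 of its 3 probes. Against CD NW livers every alternative used that same probe, so none of them bears on the choice of probe. The next probe was above background in 3 of 5 tumors, 3 of 5 WD SW livers and 0 of 5 CD NW livers, and the last on no array. The gene has several transcription starts, of which one gives the form PPARG2 that is typical of fat cells. Where in the transcript the probes lie is not known here, so the forms were not told apart. RefSeq places the starts in these windows of 300 bases of GRCm38.p6, shown 5′ to 3′ on the strand of the gene because Pparg carried the clearest difference among the 10 genes. Capitals mark the half-site AGGTCA that PPARG and its partner recognise.
Pparg chr6:115360894-115361193 (+ strand): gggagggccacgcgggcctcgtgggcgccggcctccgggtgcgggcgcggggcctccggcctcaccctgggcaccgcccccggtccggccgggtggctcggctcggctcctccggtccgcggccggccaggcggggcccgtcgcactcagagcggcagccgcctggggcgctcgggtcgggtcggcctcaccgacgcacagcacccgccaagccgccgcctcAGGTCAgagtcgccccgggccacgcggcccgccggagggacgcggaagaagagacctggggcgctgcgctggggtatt
Pparg chr6:115362099-115362398 (+ strand): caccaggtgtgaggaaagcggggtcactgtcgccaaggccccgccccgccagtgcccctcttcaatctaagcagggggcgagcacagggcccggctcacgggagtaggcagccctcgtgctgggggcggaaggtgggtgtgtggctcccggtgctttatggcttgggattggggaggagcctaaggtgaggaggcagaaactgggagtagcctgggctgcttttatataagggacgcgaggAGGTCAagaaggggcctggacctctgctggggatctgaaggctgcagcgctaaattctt
Pparg chr6:115421816-115422115 (+ strand): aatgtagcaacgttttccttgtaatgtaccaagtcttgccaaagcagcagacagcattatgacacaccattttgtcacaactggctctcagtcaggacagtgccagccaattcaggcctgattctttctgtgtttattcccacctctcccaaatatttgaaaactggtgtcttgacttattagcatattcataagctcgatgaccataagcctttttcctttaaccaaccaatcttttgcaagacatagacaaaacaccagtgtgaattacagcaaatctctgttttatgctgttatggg
The first and second windows each held 1 half-site and the third none. A half-site on either strand was found in 16.3% of all 32851 windows of this length. The full motif, a direct repeat of the half-site with 1 base of any kind between, AGGTCANAGGTCA, was in none of the 3 windows with up to 3 mismatches on either strand.

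**Figure D1:**
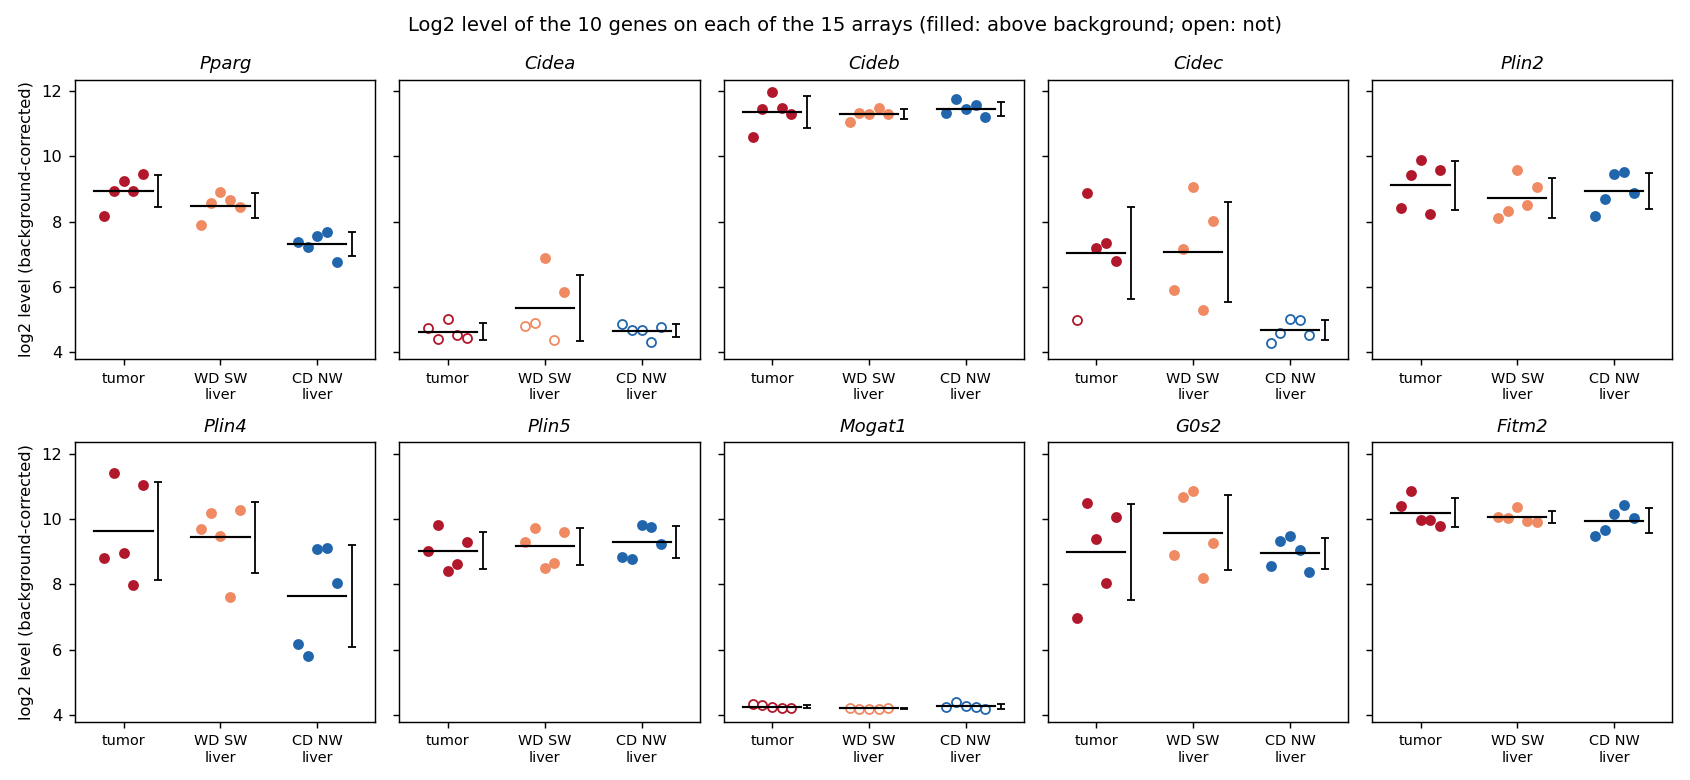
Log2 level (y axis) of each of the 10 genes on the 15 arrays, with tumors, WD SW livers and CD NW livers along the x axis. Each point is 1 array (filled, above background; open, not), the horizontal line is the mean and the bar beside it 1 SD of 5 arrays; the 5 CD NW livers lie lowest for Pparg, at 6.76 to 7.69, and for Cidec none of them is above background.

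Of the 3 CIDE genes, Cidec was higher in WD SW livers than in CD NW livers, Cideb was not called and Cidea was mostly below background. Cidec, known as FSP27, gathers at contacts between droplets and lets lipid pass from the smaller to the larger one, and is typical of fat cells and fatty liver. Its level was 4.98, 8.89, 7.19, 7.35 and 6.79 in the tumors of mice 4N, 4R, 5N, 5R and 6L, of which the first was not above background. It was 5.90, 7.15, 9.06, 5.28 and 8.02 in the WD SW livers of the same mice, all above background, and 4.30, 4.59, 5.02, 5.0 and 4.53 in the CD NW livers of mice 1L, 1R, 2L, 2N and 3N, none of them above background. All WD SW livers thus lay above all CD NW livers, but the spread among them, an SD of 1.54, was the widest of the 10 genes in that group.

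The mean of Cidec was 7.08 in WD SW livers and 4.69 in CD NW livers, where the gene passed the filter only through its WD SW arrays. Counting each CD NW array at no less than its lowest level above background, the WD SW livers were at least 3.05-fold higher (limma adjusted p = 0.0287 for the fitted difference of 2.39, standard error 0.60). The call was close to the threshold. It was lost without background correction (a difference of 1.21, adjusted p = 0.0659), with a background correction that used no control probes (1.47, 0.0533) and with the authors' processed values (1.21, 0.0631). It was also lost when any 1 of the 5 CD NW livers or the WD SW liver of mouse 4R or 6L was left out, where the adjusted p was 0.0521 to 0.0676 and the difference 2.16 to 2.48. Tumors had a mean of 7.04 and were at least 2.97-fold above CD NW livers. With 4 of 10 arrays above background, Cidec was not tested in that comparison under the filter. Without the filter its adjusted p was 0.0117 in limma, a value that depends on the 5 CD NW livers and the tumor of mouse 4N at background.

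Cidec has 2 windows in RefSeq, shown because it was the other gene called between the diets. The direct repeat was found in neither with up to 2 mismatches, and neither holds the half-site.
Cidec chr6:113435711-113436010 (- strand): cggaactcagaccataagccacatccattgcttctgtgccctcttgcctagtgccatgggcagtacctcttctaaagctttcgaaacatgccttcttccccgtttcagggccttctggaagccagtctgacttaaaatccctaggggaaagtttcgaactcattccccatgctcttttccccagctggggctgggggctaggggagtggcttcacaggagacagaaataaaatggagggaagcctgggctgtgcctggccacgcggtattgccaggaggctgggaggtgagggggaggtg
Cidec chr6:113434715-113435014 (- strand): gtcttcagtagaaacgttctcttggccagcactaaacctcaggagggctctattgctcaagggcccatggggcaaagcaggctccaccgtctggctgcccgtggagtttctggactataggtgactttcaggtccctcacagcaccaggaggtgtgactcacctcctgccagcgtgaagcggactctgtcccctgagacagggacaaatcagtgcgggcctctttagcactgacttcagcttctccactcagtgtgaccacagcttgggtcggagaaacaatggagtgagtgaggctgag
Pparg and Cidec both lie on chromosome 6. Over the 15 arrays the levels of the pair had a Pearson r of 0.768, and r was 0.491 for deviations from the group means.

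Cidea, a relative of Cidec best known from brown fat, was above background on 2 arrays only, the WD SW livers of mice 5N (6.88) and 6L (5.84). The same 2 livers were highest for Cidec. On the other 13 arrays Cidea was at 4.31 to 5.01, and the gene was tested in no comparison. Cideb, the CIDE gene of normal liver, which takes part in loading VLDL with lipid, was at 10.59 to 11.96 in tumors, 11.05 to 11.50 in WD SW livers and 11.21 to 11.75 in CD NW livers. None of its comparisons was called. The WD SW livers differed from CD NW livers by -0.16 (95% interval -0.43 to 0.11) and the tumors from WD SW livers by 0.06 (-0.41 to 0.54).

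None of the 3 perilipins was called in any comparison on all arrays. Plin4, which coats young droplets in fat cells and is also found in muscle, had the widest range of levels. Its level was 8.82, 11.42, 8.97, 7.97 and 11.05 in the tumors of mice 4N, 4R, 5N, 5R and 6L, 9.69, 10.17, 9.47, 7.60 and 10.26 in the WD SW livers of these mice, and 6.17, 5.81, 9.09, 9.10 and 8.04 in the CD NW livers of mice 1L, 1R, 2L, 2N and 3N. The CD NW livers were split, with mice 1L and 1R far below the other 3, and the groups overlapped. WD SW livers had a mean of 9.44 ± 1.08 and CD NW livers one of 7.64 ± 1.57 (SD, n = 5 each), a difference of 1.80 that was not called (95% interval 0.22 to 3.37, limma adjusted p = 0.139). Tumors, at 9.64 ± 1.51 (SD, n = 5), were 2.0 above CD NW livers (0.27 to 3.74, limma adjusted p = 0.0873). That difference was called when the tumor of mouse 5R was left out, at 2.42 with a limma adjusted p of 0.0451, and under none of the other 19 alternatives.

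Plin2, the perilipin found on droplets of most cells and a usual marker of fatty liver, had a range of 8.24 to 9.89 in tumors, 8.11 to 9.60 in WD SW livers and 8.16 to 9.52 in CD NW livers. The 3 ranges overlapped. WD SW livers differed from CD NW livers by -0.22 (95% interval -0.93 to 0.48, limma adjusted p = 0.700), so a rise of more than 0.48 on this scale lay outside the interval. Plin5, which ties droplets to mitochondria and is abundant in tissues that burn fat, was at 8.41 to 9.81 in tumors, 8.50 to 9.74 in WD SW livers and 8.78 to 9.82 in CD NW livers. Its difference between the diets was -0.13 (-0.76 to 0.51, limma adjusted p = 0.819).

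Of the 13 windows that RefSeq gives for 9 of the genes, those of Plin2 and Mogat1 held the direct repeat with up to 2 mismatches, as did 3.86% of all windows. The one of Plin2 is shown, because this gene is widely used as a readout of PPAR activity. Capitals mark the match, which reads AGGTCAGGGGTCC on the opposite strand.
Plin2 chr4:86670010-86670309 (- strand): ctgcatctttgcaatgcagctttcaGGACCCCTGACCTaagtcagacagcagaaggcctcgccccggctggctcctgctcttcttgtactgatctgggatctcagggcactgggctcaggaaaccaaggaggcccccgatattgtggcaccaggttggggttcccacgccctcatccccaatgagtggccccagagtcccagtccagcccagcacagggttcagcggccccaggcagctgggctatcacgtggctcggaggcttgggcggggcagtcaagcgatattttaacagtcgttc
Plin4 and Plin5 are neighbours on chromosome 17. Of the 28 pairs among the 8 genes measured on at least 5 arrays, these 2 had the highest correlation of deviations from the group means, with r = 0.847 over 15 arrays (0.562 for levels), as a description and with no test.

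G0s2 inhibits ATGL, the lipase that opens the breakdown of stored triglyceride. Its level was 6.97, 10.49, 9.39, 8.03 and 10.07 in the tumors of mice 4N, 4R, 5N, 5R and 6L. It was 8.90, 10.69, 10.85, 8.19 and 9.28 in the WD SW livers of these mice, and 8.38 to 9.47 in CD NW livers. The SD was 1.47 in tumors, 1.15 in WD SW livers and 0.47 in CD NW livers, and no comparison of means was called. WD SW livers were 0.62 above CD NW livers (95% interval -0.41 to 1.66, limma adjusted p = 0.436). Within groups G0s2 and Cidec deviated together, with r = 0.770 over the 15 arrays (0.625 for levels).

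Fitm2, a protein of the endoplasmic reticulum needed for droplets to bud, had an SD of 0.17 in WD SW livers, next to Cideb with 0.16 the smallest among the genes above background there. It was at 9.78 to 10.85 in tumors, 9.93 to 10.36 in WD SW livers and 9.48 to 10.44 in CD NW livers. The difference between the diets was 0.11 (95% interval -0.27 to 0.50, limma adjusted p = 0.729), and its 3 probes, at 0.11, 0.26 and 0.14, were all uncalled. Mogat1, which makes diacylglycerol from monoacylglycerol and is a known target of PPARG in fatty liver of mice, was above background on 0 of 15 arrays. It was read by 1 probe, so these arrays hold no level for it.

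In counts, 8 of the 10 genes could be tested between WD SW and CD NW livers, of which 2 were higher and 0 lower, and 3 and 0 had an unadjusted p under 0.05 in limma. Of all 8429 genes tested, 6.07% were higher and 3.7% lower (512 and 312, or 552 and 126 with median scaling of the arrays). The ranges of the groups did not overlap for 2 of the 8, Pparg and Cidec, against 10.1% of all genes. Since Cidec passed the filter only through its WD SW livers, its call and its lack of overlap were partly set by the filter, and nothing is read from the count. Between tumors and CD NW livers 1 of 7 tested was higher (Pparg) and 0 lower, against 12.3% higher and 12.8% lower of 8352 genes (1030 and 1069, or 1138 and 460 with median scaling), and 1 of the 7 did not overlap, against 17.6%. The median difference of the members was 0.37 between the diets, with -0.05 over all genes, and 0.17 between tumors and CD NW livers, with -0.04.

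**Figure D2:**
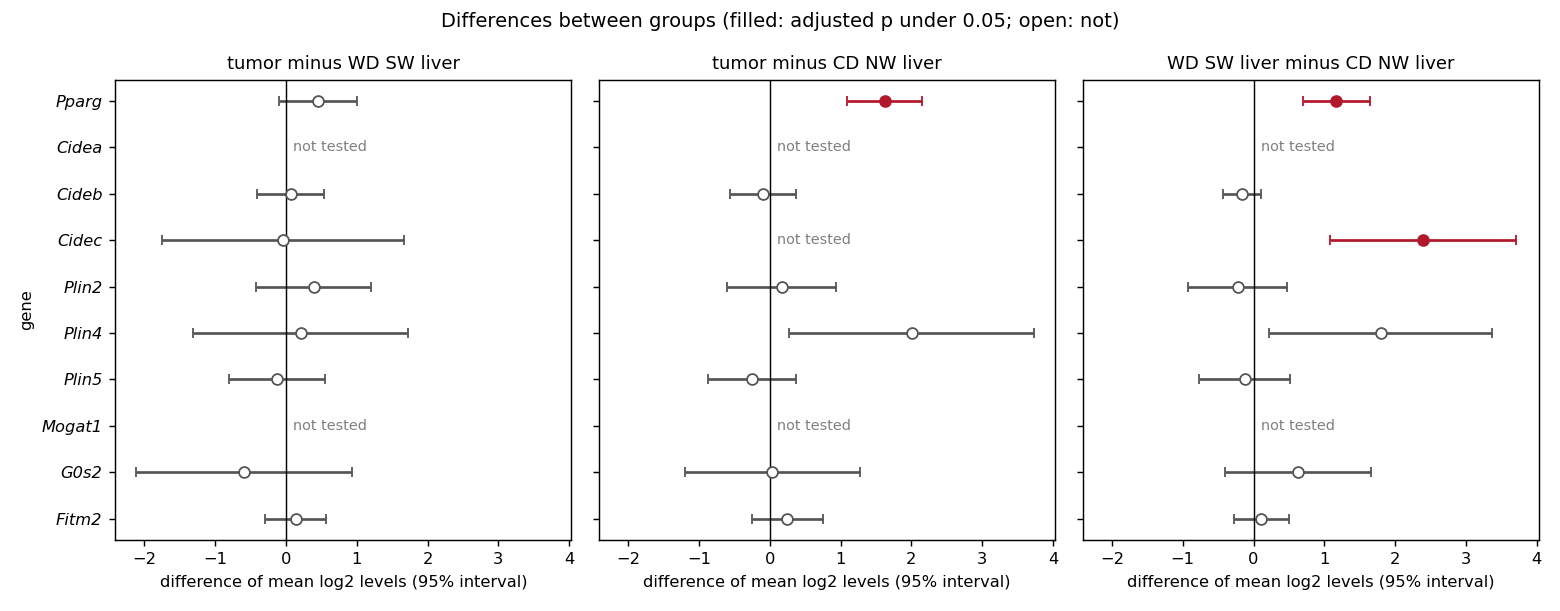
Difference of mean log2 levels (x axis) with its 95% interval for each gene (y axis) in the 3 comparisons, tumor minus WD SW liver on the left. Filled points had a limma adjusted p under 0.05: Pparg in both comparisons with CD NW livers and Cidec between the livers; all 8 points of tumor minus WD SW liver are open.

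Between tumors and WD SW livers of the same mice no difference of these genes was called. Of 8 tested, 0 were higher and 0 lower in limma, and 0 had an unadjusted p under 0.05 in this fit, which does not pair by mouse. With the mouse as a replicate block, the count at an adjusted p under 0.05 stayed 0. Over all 8674 genes, 1.96% were higher and 2.05% lower (170 and 178), and 5.67% had groups that did not overlap, as did 0 of the 8 members. The median difference of the members was 0.10, with 0.00 over all genes. With the mouse as a block the numbers over all genes were 383 and 524. Pparg was higher in the tumor than in the liver of the same mouse in 5 of 5 mice, by 0.28 to 1.0, with the largest gap in mouse 6L. The mean difference was 0.46 (standard error 0.25, 95% interval -0.09 to 1.0, limma adjusted p = 0.361 without the pairing). With the mouse as a block, the standard error of this Pparg difference was 0.15 and its limma adjusted p 0.0883. The adjusted p over all 22 alternatives was 0.0883 to 0.577. Plin2 was higher in 4 of 5 tumors (-0.27 to 1.11), Plin5 and G0s2 each lower in 4 of 5. Cidec went both ways, with tumor minus liver at 2.07 in mouse 5R and 1.74 in mouse 4R and at -0.92, -1.23 and -1.87 in mice 4N, 6L and 5N. The 95% interval of its mean difference, -1.75 to 1.67, is too wide to say that tumor and liver were alike.

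**Figure D3:**
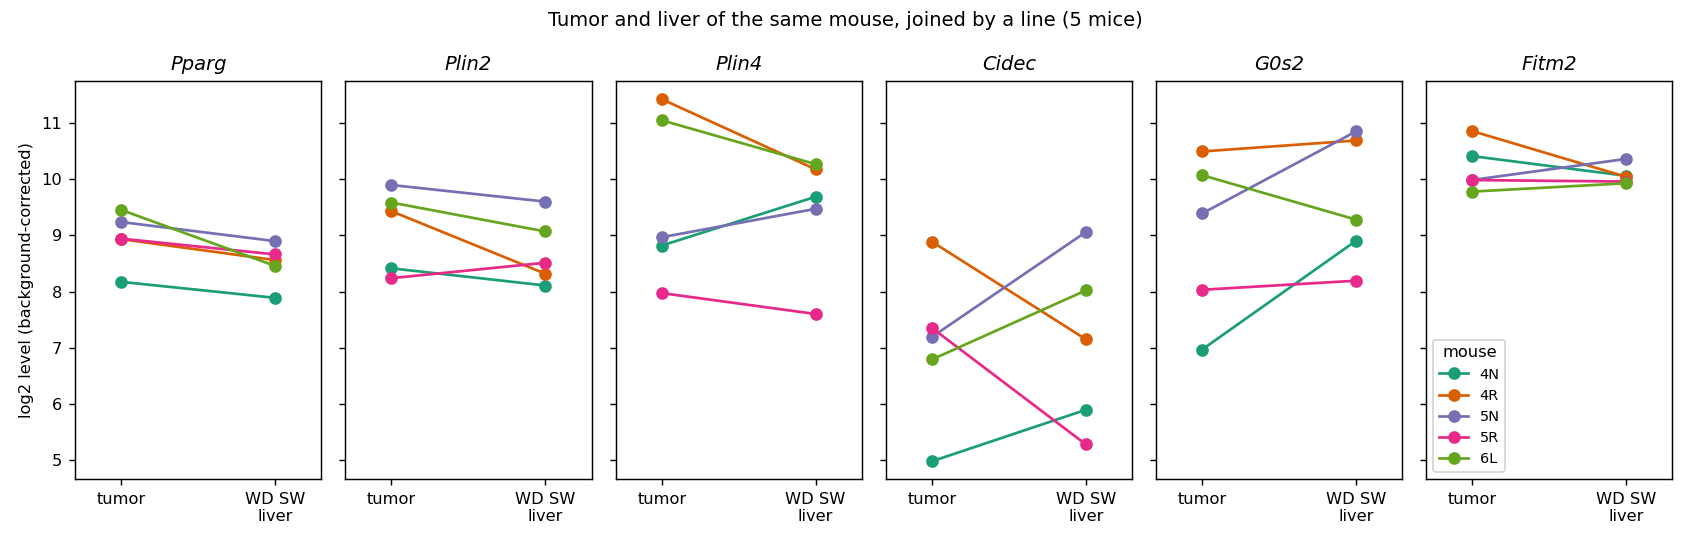
Log2 level (y axis) in the tumor and in the liver of the same WD SW-fed mouse, joined by a line, for 6 of the genes; each colour is 1 of 5 mice. The lines of Pparg all run down from tumor to liver, while those of Cidec cross, at -1.87 to 2.07 for tumor minus liver.

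Of the genes known to be switched on by PPARG in fat cells, Lpl and Scd1 were higher in WD SW than in CD NW livers. Of 24 such genes 19 had a probe, and 12 could be tested between WD SW and CD NW livers, with 2 higher and 0 lower (median -0.06, with -0.05 over all genes), where 6.07% of all genes were higher and 3.7% lower. Lpl, the lipase that frees fatty acids from lipoproteins, was the clearest. Its level was 12.91, 11.46, 11.40, 11.76 and 12.30 in the tumors of mice 4N, 4R, 5N, 5R and 6L, and 9.81, 9.64, 11.05, 11.23 and 11.35 in the WD SW livers of these mice. In CD NW livers Lpl was at 7.74 to 8.69, below every WD SW liver, and every tumor lay above every WD SW liver. The difference was 2.47 between WD SW and CD NW livers (standard error 0.35, limma adjusted p = 0.00250), 3.82 between tumors and CD NW livers (0.28, 3.79e-06) and 1.35 between tumors and WD SW livers (0.40, 0.0846). Lpl is also made by macrophages. The other called target was Scd1, a fatty acid desaturase, with 0.55 (standard error 0.16, limma adjusted p = 0.0480), a call lost in 14 of 20 alternatives, among them the one without the WD SW liver of mouse 5R (adjusted p = 0.0794).

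Most genes that would mark fat tissue were below background. Adipoq, Fabp4, Retn, Plin1 and Ucp1 were above background on 0 of 15 arrays, Lep on 1 and Lipe on 3. Over the 5 of 10 adipocyte markers with a probe that were above background on any array, the summed linear level was 304 to 2045 in tumors, 264 to 3070 in WD SW livers and 2080 to 2915 in CD NW livers. One of these 5, Car3, was above background on all 15 arrays and is also made by hepatocytes. Another, Pnpla3, was above background on 13 of 15 arrays. These 2 were the only adipocyte markers tested. In tumors against CD NW livers Pnpla3 was higher (2.08) and Car3 lower (-1.91), and neither was called in the other 2 comparisons. Cd36, a fatty acid transporter often named with PPARG in fatty liver, was above background in 4 of 5 tumors, 4 of 5 WD SW livers and 0 of 5 CD NW livers. The WD SW livers were at least 1.07-fold and the tumors at least 1.02-fold above CD NW livers, at levels near background, and with 4 of 10 arrays above background neither difference was tested.

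Mogat2, Aqp7 and Hsd17b11 had levels in tumors that the livers did not reach, as did Lpl and Sort1. The groups did not overlap for 5.67% of all genes between tumors and WD SW livers, and for 17.6% between tumors and CD NW livers. Mogat2, which makes the same step as Mogat1 and is best known from the intestine, was at 8.56, 7.37, 8.53, 8.72 and 7.24 in the tumors of mice 4N, 4R, 5N, 5R and 6L. In the WD SW livers of these mice it was at 4.55, 4.56, 5.64, 6.45 and 4.65, of which only those of mice 5N and 5R were above background, and in CD NW livers at 4.37 to 4.60, none above background. Tumors were 2.91 above WD SW livers (standard error 0.43, limma adjusted p = 0.00475) and at least 6.11-fold above CD NW livers (limma adjusted p = 5.31e-06), where the gene passed the filter only through the tumors. The value of 2.91 depends on 3 WD SW livers at background. Aqp7, the channel that carries glycerol out of fat cells, was at 6.15 to 7.23 in tumors, 4.44 to 5.73 in WD SW livers and 4.25 to 4.69 in CD NW livers. Its difference between tumors and WD SW livers was 1.86 (0.30, limma adjusted p = 0.00674), and tumors were at least 2.42-fold above CD NW livers. As for Mogat2, only 2 of 5 WD SW livers and 0 of 5 CD NW livers were above background, so the gene passed the filter against CD NW livers only through the tumors, and the value of 1.86 depends on 3 livers at background. Hsd17b11, a dehydrogenase that sits on droplets, was at 8.57 to 9.53 in tumors and 7.64 to 8.24 in WD SW livers, 1.15 apart (0.22, limma adjusted p = 0.0147), and at 6.90 to 7.87 in CD NW livers. The calls of Mogat2, Aqp7 and Hsd17b11 held in all alternatives in which the gene was tested. With detection asked for on all 10 arrays, Mogat2 and Aqp7 could not be tested.

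**Figure D4:**
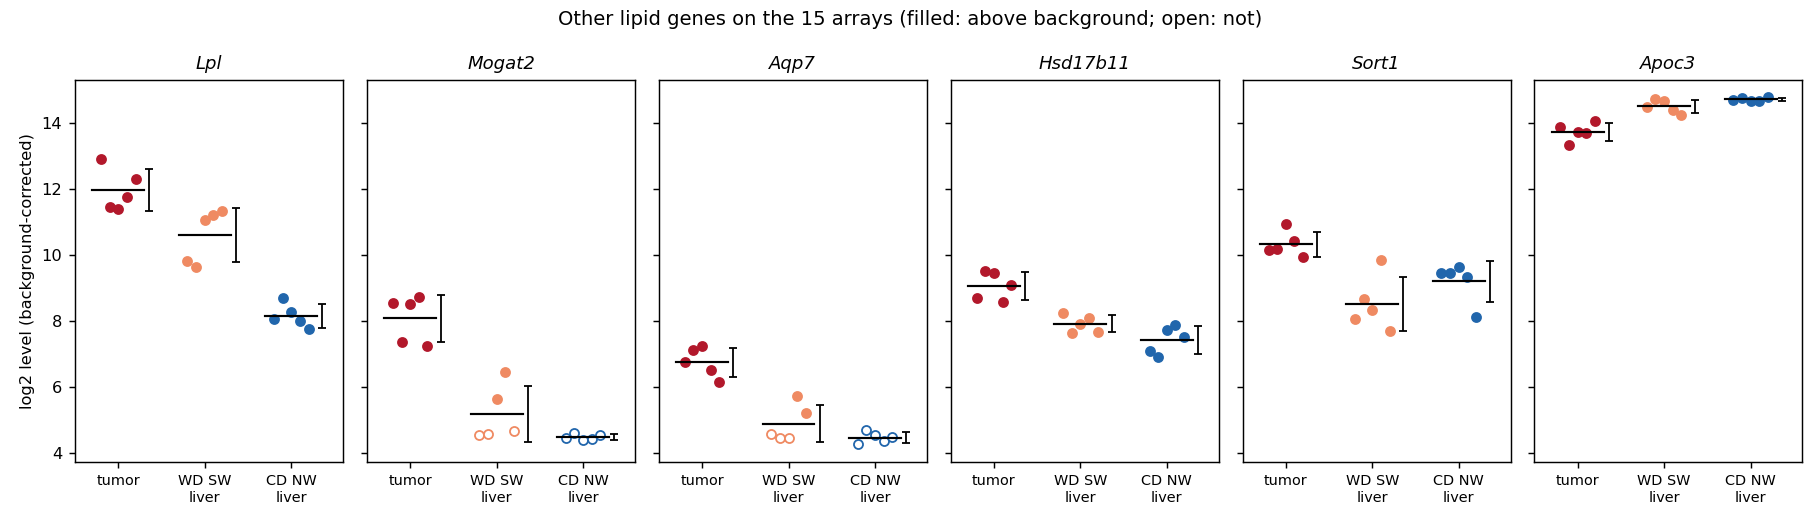
Log2 level (y axis) of 6 lipid genes outside the 10, on 15 arrays in 3 groups along the x axis, drawn as for the 10 genes (point, 1 array; line, mean; bar, 1 SD). Mogat2 and Aqp7 are above background in all 5 tumors, in 2 of 5 WD SW livers and in 0 of 5 CD NW livers, and Apoc3 is lowest in tumors.

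Among genes of lipid export, Sort1 was higher and Apoc3 lower in tumors than in WD SW livers. Of 15 genes of VLDL assembly, all tested, 1 was higher and 1 lower than in WD SW livers (median -0.04, with 0.00 over all genes). Of all genes, 1.96% were higher and 2.05% lower in this comparison. Sort1, a sorting receptor that binds apolipoprotein B, was at 9.94 to 10.94 in tumors and 7.69 to 9.84 in WD SW livers, with the highest liver that of mouse 5R, a difference of 1.81 (standard error 0.35, limma adjusted p = 0.0166). It was at 8.12 to 9.65 in CD NW livers. Apoc3, a protein of VLDL that slows its clearance, was at 13.34 to 14.07 in tumors and 14.24 to 14.75 in WD SW livers, a difference of -0.77 (0.15, limma adjusted p = 0.0174). That call was lost with median scaling (adjusted p = 0.0842), without both arrays of mouse 5R (0.0524) and without the WD SW liver of mouse 4R (0.0573). Against CD NW livers 4 of the 15 were higher in tumors (Sort1, Vmp1, Apobec1 and Sar1b) and 1 lower (Apoc3), beside 12.3% of all genes higher and 12.8% lower. The call of Vmp1 was lost with the mean of its probes, where the difference was 0.016 (adjusted p = 0.957), and with all 15 arrays in 1 fit (0.0710), and that of Sar1b in 7 of 20 alternatives, with adjusted p-values up to 0.0737. In WD SW livers 1 was higher than in CD NW livers (Apobec1, the enzyme that edits Apob RNA) and 0 lower, with 0 lower also at an unadjusted p under 0.05 in limma. There 6.07% of all genes were higher and 3.7% lower.

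In the remaining lists the calls between WD SW and CD NW livers stand beside 6.07% of all genes higher and 3.7% lower, and no list was tested as a whole. Of 18 other coat and assembly genes tested, 0 were higher (1 at an unadjusted p under 0.05 in limma) and 2 lower. Both, Nsdhl (-2.0, standard error 0.48, limma adjusted p = 0.0240) and Sqle (-2.48, 0.64, 0.0333), are enzymes of cholesterol synthesis that reach droplets. Of 15 genes of triglyceride synthesis 1 was higher, Acsl4, an acyl-CoA synthetase for long polyunsaturated fatty acids (0.91, 0.21, 0.0209). Of 12 genes of lipolysis and lipophagy 2 were higher (Hspa8 and Rab10) and 1 lower (Ces1f). Of 15 partners and regulators of PPARG, Fos was higher (1.32) and Rxra, the usual partner in liver, lower (-0.51, limma adjusted p = 0.0472), a call lost in 14 of 20 alternatives, among them the one without the WD SW liver of mouse 5R (adjusted p = 0.0690). Of 11 lipogenic transcription factors and their regulators Scap was lower (-0.88) and 0 were higher, with 0 also at an unadjusted p under 0.05. Of 10 genes of fatty acid uptake, 1 was higher, and it was Lpl. Calls of Fos (13 of 19 alternatives), Ces1f (10 of 20), Sqle and Apobec1 (9 of 20 each), Rab10 and Scap (7 of 20 each), Acsl4 (3 of 20), Nsdhl (3 of 19) and Hspa8 (1 of 20) were lost in some alternatives, with no change of sign.

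Between tumors and WD SW livers, 1 of 15 genes of triglyceride synthesis was called (Mogat2), 1 of 19 coat and assembly genes (Hsd17b11) and 1 of 14 targets (Aqp7). Each of these was higher in tumors, beside 1.96% of all genes higher and 2.05% lower. None of 16 partners and regulators, 12 genes of lipolysis, 11 of uptake or 11 lipogenic factors was called in limma. The counts at an unadjusted p under 0.05 were 3, 0, 3 and 1. With the mouse as a replicate block these 4 lists also had 0 calls, while Pdk4 (1.74, limma adjusted p = 0.0160 with the block and 0.0597 without) and Pck1 (-1.83, 0.0172 and 0.172) joined Aqp7 among the targets, and Agpat2 (-0.76, 0.0334 and 0.137) joined Mogat2. In the fit with the block, 4.42% of all genes were higher and 6.04% lower.

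Between tumors and CD NW livers the calls in the same lists stand beside 12.3% of all genes higher and 12.8% lower. Of 12 targets tested, Lpl, Aqp7 and Pdk4 were higher and Gpd1 and Pck1 lower, and of 16 partners and regulators Rxrg was lower. Of 18 coat and assembly genes, Hsd17b11 and Rab7 were higher and Vps13c, Bscl2 and Nsdhl lower. Bscl2 encodes seipin, which shapes the droplet where it forms, and fell by 0.52 on the log2 scale. Of 16 genes of triglyceride synthesis, Mogat2 and Acsl4 were higher and Agpat2 and Gpd1 lower. Of 12 genes of lipolysis, Hspa8 and Pnpla3 were higher, and of 9 genes of uptake Lpl and Vldlr were higher and Slc27a5 and Lrp1 lower. Of 11 lipogenic factors and regulators only Scap was called, and it was lower. Some of these calls were lost in alternatives, with no change of sign: Lrp1 in 13 of 20, Rab7 in 10 of 20, Pck1 in 9 of 20, Pnpla3 in 7 of 19, Rxrg in 5 of 19, Gpd1 in 2 of 20, Pdk4 in 2 of 19, Agpat2 and Bscl2 in 1 of 20 each, and Nsdhl and Vps13c in 1 of 19 each. Without the tumor of mouse 5R the adjusted p was 0.0531 for Lrp1 and 0.0693 for Pnpla3. Vldlr, which takes up lipoproteins, was 2.94 higher in tumors (standard error 0.56, limma adjusted p = 0.00268), at 7.33 to 10.66 in tumors and 5.66 to 7.15 in CD NW livers.

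Macrophage markers were higher in WD SW than in CD NW livers, as Pparg and Cidec were. Of 17 such markers 15 had a probe and 11 were above background on some array, with 4 defining ones (Ccr2, Cd5l, Fcer1g and Itgam) on none. Of 9 tested, 8 were higher in WD SW than in CD NW livers and 0 lower (median 2.69, with -0.05 over all genes). Of all genes, 6.07% were higher and 3.7% lower between these livers. Between tumors and CD NW livers 7 of 9 tested were higher and 0 lower, beside 12.3% of all genes higher and 12.8% lower. Their summed linear level was 1784 to 5336 in tumors, 3920 to 17335 in WD SW livers and 967 to 1721 in CD NW livers. Tyrobp, Gpnmb and Cd14 were above background in all 5 tumors and all 5 WD SW livers, but in 1, 1 and 2 of 5 CD NW livers. These genes passed the filter through the brighter group, so the counts against CD NW livers were partly set by the filter. Between tumors and WD SW livers 0 of 9 were called in limma, 6 had an unadjusted p under 0.05 and a lower mean in tumors, and 6 were lower with the mouse as a replicate block. Of all genes, 1.96% were higher and 2.05% lower without the block, and 4.42% higher and 6.04% lower with it. Without both arrays of mouse 5R, Clec4f, a gene of Kupffer cells, was called lower in tumors (-2.23, limma adjusted p = 0.00383, against 0.0527 with them). Pparg had a higher value in each tumor than in the liver of that mouse, a difference that was not called. Among WD SW livers the sums of mice 5N (8799) and 6L (17335) were the highest, and so were their Cidec levels, a match picked out with the values known and not tested. Tumors went the other way. There the sums of mice 6L (5336) and 4N (5331) were the highest, and their Cidec levels (6.79 and 4.98) the lowest. Of the other cell types, 0 of 6 stellate cell and fibroblast markers, 0 of 9 endothelial and 0 of 2 cholangiocyte markers were called between WD SW and CD NW livers in limma, with 2, 2 and 0 at an unadjusted p under 0.05, and the 1 B, T and NK cell marker tested, Cd79b, was higher. Cd79b was above background in 5 of 5 WD SW livers and 0 of 5 CD NW livers. It passed the filter only through the WD SW livers, so its call was partly set by the filter. The WD SW livers were at least 1.41-fold higher. Between tumors and WD SW livers, Stab2, an endothelial marker, was lower (-1.09, limma adjusted p = 0.0210), and of 14 hepatocyte markers Glul was higher (2.30, 0.00965) and Cyp2f2 lower (-4.50, 0.0405, and 0.0691 without both arrays of mouse 5R). With the mouse as a replicate block 3 of 11 endothelial, 1 of 6 stellate cell and 4 of 14 hepatocyte markers were lower and 1 hepatocyte marker higher, beside 6.04% of all genes lower and 4.42% higher. Between tumors and CD NW livers 6 of 14 hepatocyte, 2 of 5 stellate cell, 2 of 10 endothelial and 1 of 2 cholangiocyte markers were lower, and 1 hepatocyte and 1 endothelial marker higher. Of all genes, 12.8% were lower and 12.3% higher there. The part of these cell types in the differences of Mogat2, Aqp7, Hsd17b11, Sort1 and Apoc3 in tumors was not tested. The part of macrophages in the differences of Pparg, Cidec and Lpl was not tested.

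**Figure D5:**
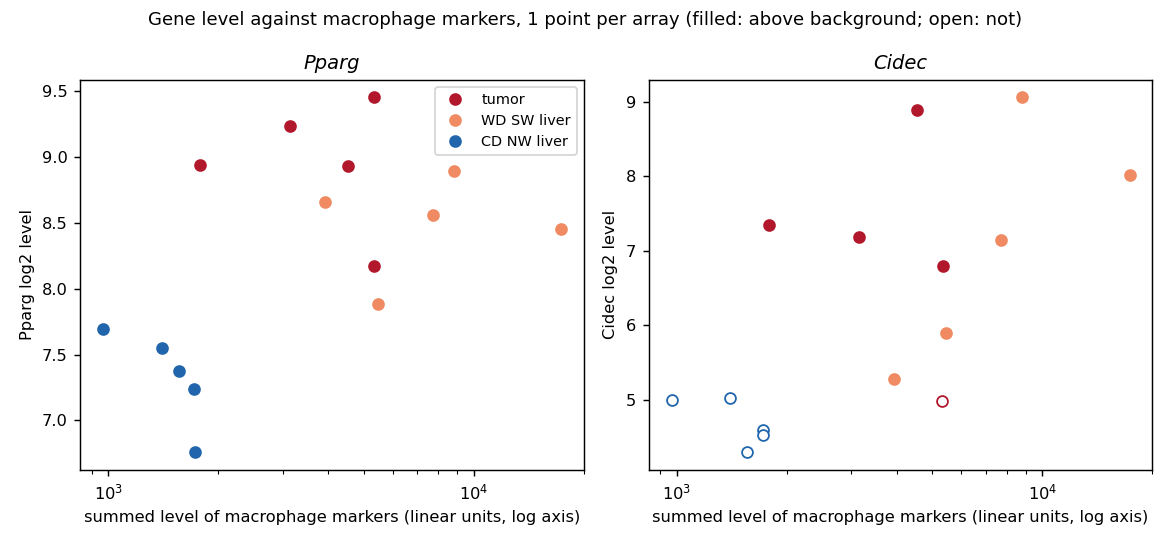
Log2 level of Pparg (left) and Cidec (right) on the y axis against the summed linear level of 11 macrophage markers (log x axis); each point is 1 of 15 arrays, coloured by group (filled, above background; open, not). The 5 CD NW livers lie at the lower left of both panels, with marker sums of 967 to 1721, and the sums are 1784 to 5336 in tumors and 3920 to 17335 in WD SW livers.

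Of 8988 genes above background on at least 5 arrays, those whose levels ran most like Pparg over the 15 arrays were Cdkn2c (r = 0.927), Aldh3a2 (0.924), Rbl1 (0.915), Hacd3 (0.910) and Gsk3b (0.908). For deviations from the group means their r was 0.647, 0.742, 0.588, 0.810 and 0.612. Those most like Cidec were Lgals1 (0.923), Cbr3 (0.887), Spred1 (0.879), Nid1 (0.879) and Ywhah (0.868), with r of deviations from 0.722 to 0.849. The first r mixes the differences between groups with those within them, and arrays of the same mouse are not independent.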

How the data were processed

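The deposited probe intensities of 15 Illumina arrays, on a linear scale and with no normalization between arrays, were used. A table of processed intensities from the authors, whose making no source used here describes, served as an alternative. Background was corrected and arrays quantile normalized by limma's neqc (limma 3.58.1, R 4.3.3, offset 16). Since no control probes were among the values, 1526 probes of olfactory, vomeronasal and trace amine receptors stood in for them, and their share at or above a signal was its detection p. To be tested, a probe needed a value of this share under 0.01 in 5 or more of the 10 arrays compared, and the brightest such probe stood for its gene. Names came from the platform's gene identifiers, and promoters from RefSeq (GRCm38.p6).

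Means were compared by lmFit and eBayes with a trend, with Benjamini-Hochberg adjustment over all genes and a threshold of 0.05. An at-least fold compares the mean of the bright group with that of the dim one, each dim array counted at its lowest level above background or its own level if higher. Tumors and WD SW livers are paired by mouse in the labels, and deviations of tumor and own liver from the group means correlated at r = 0.189 to 0.520 across genes, above any other liver. The 10 genes and all lists were chosen with earlier results of these data known. Named are all 10, up to 4 genes per list with the smallest adjusted p, all genes of counts of 5 or fewer, and the 5 genes most like Pparg and Cidec. Cd36, Lep and Lipe fall outside this rule and were picked with their values known. Alternatives covered background, scaling, the authors' values, filters, probes per gene, all arrays in 1 fit, array weights, the mouse as a block and leaving out arrays. The tests were checked on simulated arrays. The number of arrays limits the precision. Plots used matplotlib 3.10.9 in Python 3.11.15.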

Additional observations from a re-analysis of the deposited data

How the results depend on the processing

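Of 481 values of the 10 genes under alternatives, 444 were counted as the same. For most of these, sign and call were kept. The others are values without the filter of differences not tested with it, which had no call to keep and could not differ in size. They are those of Cidea and Mogat1 in all comparisons and of Cidec between tumors and CD NW livers. The last was called without the filter (limma adjusted p = 0.0117). Of the 481 values, 10 lost the call (all of Cidec between WD SW and CD NW livers). In 1 the call was gained (Plin4 between tumors and CD NW livers without the tumor of mouse 5R), and 26 changed sign, all of differences that were not called. The number of members changed between WD SW and CD NW livers was 1 without background correction, with the correction without control probes, with the authors' values and with detection on all 10 arrays, where Cidec could not be tested, and 1 to 2 with single arrays left out. Between tumors and CD NW livers it was 2 without a filter and 1 to 2 with single arrays left out. Genes changed between WD SW and CD NW livers numbered 824, with 499 under detection on all 10 arrays and 475 (CD NW liver of 2L left out) to 964 (WD SW liver of 5R left out) over single arrays. Between tumors and WD SW livers they numbered 348, with 231 under median scaling, 221 under detection on all 10 arrays, 681 with all 15 arrays in 1 fit, 552 with array weights and 154 (WD SW liver of 4R left out) to 468 (that of 5R left out) over single arrays. With the mouse as a replicate block, which pairs tumor and liver, 907 genes changed, 344 of them among the 348, and 0 members, with Pparg at an adjusted p of 0.0883 in limma. Median scaling moved the median of all genes to 0.05, 0.08 and 0.15 for WD SW minus CD NW livers, tumors minus WD SW livers and tumors minus CD NW livers. Signs changed for tumors minus WD SW livers of Cidec (0.10 with median scaling, 0.25 with array weights) and for tumors minus CD NW livers of Cideb (0.068 with array weights). With single arrays left out, the difference of WD SW and CD NW livers was -0.0074 to 0.23 for Fitm2 and -0.27 to 0.039 for Plin5. That of tumors and WD SW livers was -0.50 to 0.47 for Cidec, -0.32 to 0.031 for Plin5, -0.25 to 0.62 for Plin4, -0.030 to 0.24 for Fitm2 and -0.085 to 0.26 for Cideb. That of tumors and CD NW livers was -0.030 to 0.38 for Plin2, -0.34 to 0.54 for G0s2 and -0.25 to 0.095 for Cideb. The causes were not tested. Genes near background, such as Cidea and Mogat1, had no level that could be compared.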

Other observations

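The CD NW livers of mice 1L and 1R had the lowest levels of that group for 4 droplet genes, a pattern picked out with the values known and not tested. Plin4 was at 6.17 and 5.81 there, against 8.04 to 9.10 in the other 3 CD NW livers. Plin5 was at 8.84 and 8.78, against 9.25 to 9.82. Plin2 was at 8.16 and 8.71, against 8.89 to 9.52, and Fitm2 at 9.48 and 9.66, against 10.03 to 10.44. Pparg, at 7.37 and 7.24, did not set these 2 livers apart, since the liver of mouse 3N was lower at 6.76.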
